A study of Mus musculus with 6 samples.

Results

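The genes described here are 44 genes of DNA replication and S phase, measured in B1a cells sorted from the peritoneal cavity (PC) of p40-/-IL-2Rα-/- mice and of p40-/-IL-2Rα+/- controls. They were chosen by name and by known role, from licensing of replication origins to supply of deoxynucleotides, and with earlier results of these data known. Each was read from the probe of its name with the highest mean log2 signal over all arrays. All 44 were present among the 36163 gene names on the array, and 43 of them were bright enough to be tested.

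Before S phase a cell loads the MCM helicase onto its replication origins, and at the start of S phase kinases convert the loaded helicase into an active form that unwinds DNA. The polymerases, the sliding clamp that holds them on DNA and the enzymes that make deoxynucleotides then act at the moving fork. Transcription of many of these genes rises before and during S phase under control of E2F factors. B1a cells are a B cell subset of body cavities that maintains itself in the adult by self-renewal.

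RNA from B1a cells, sorted as B cells positive for CD11b and CD5, was hybridised to single-colour Agilent mouse arrays, with 3 arrays for each genotype. All mice were female, 7 weeks old and of the C57Bl/6 background. Both groups lacked p40, the subunit shared by IL-12 and IL-23 that Il12b encodes, so the groups differed by design in Il2ra, which encodes IL-2Rα (CD25) and was deleted in all cells of the knockout mice and carried as 1 deleted and 1 intact allele in the controls. Each sample held cells of several mice, and no array of untreated wild-type cells was part of the comparison. The knockout allele was not limited to B cells, so the comparison does not separate what the receptor does in B1a cells from what its loss does elsewhere in these mice, which spontaneously develop autoimmune cholangitis. P values measure the spread between these 3 arrays per genotype. In bulk RNA, fewer cycling cells and less mRNA per cycling cell cannot be told apart.

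The arrays stood on 1 slide and were read in 1 scan, with no saturated spot. The 75th percentile of the processed signal, by which each array was scaled, lay between 252 and 272 on the control arrays and between 66.5 and 162 on the knockout arrays, and between 47.2% and 50.6% of spots were well above background on control arrays against 39.7% to 45.9% on knockout arrays. The part of this difference in brightness in the results was not tested. Knockout array 2 stood apart, with the lowest signal (66.5) and correlations of 0.968 to 0.980 with the other arrays, which correlated with each other by 0.980 to 0.992, and it was the lowest array for 17 of the 39 members above background on all 6. Without it the median difference of the members described below was -0.44, against -0.45 with it, 32 members in place of 26 had every knockout array below every control array (25.5% of all genes in place of 21.6%), and 4 in place of 3 were called lower (282 of all genes in place of 231). The Il2ra probe read 1.62, 1.13 and 1.35 in the controls, against -0.31, -0.59 and 0.86 in the knockouts, in log2 units relative to the 75th percentile of each array. The genotypes did not overlap for Il2ra, and the difference was -1.38 ± 0.37 (SE), with an adjusted P of 0.121. The probe of Il12b, deleted in both groups, was well above background on all 6 arrays, with means of -2.06 and -2.08. Whether either probe lies inside the deleted part of its gene is not given in the sources used here. All 7 B cell markers and all 5 B1a markers, including Cd5 and Itgam (CD11b), were detected above background in every sample. Of the B1a markers, Itgam differed by 0.79 and Bhlhe41 by 0.55, each with every knockout array above every control array (14.7% of all genes tested did so). Spn differed by 0.42, Cd5 by -0.23 and Zbtb32 by -0.18, each with overlap.

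The sequences of 60-base probes are shown for Rrm2 and Dscc1, called lower, and for Pola2, the member with the highest difference. The middle 30 bases of each, from base 16 to base 45, were as follows, with probe positions in mm9.
Rrm2, chr12:25398824-25398883, plus strand: actgacataaccctgatcagtttccttgat
Dscc1, chr15:54907709-54907768, minus strand: aatggcattaaagtttataattccaggaga
Pola2, chr19:5946484-5946543, minus strand: agcccattcgaagacgttttcaagcaatgc

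The promoters of the members were searched for the words of the factors that regulate cell cycle genes, and the promoters of Mcm5, Mcm6, Rrm2 and Pola2 are shown because these genes span the range from lower to higher mean. The sequences are the 250 bases before the gene's start, from RefSeq on GRCm38.p6, written along the gene's strand. Capitals mark the E2F words TTTCCCGC, TTTGGCGC, TTTCGCGC and TTTGCCGC and the NF-Y word CCAAT, each on either strand and with overlapping words marked as 1 run.
Mcm5, chr8:75109259-75109508, plus strand: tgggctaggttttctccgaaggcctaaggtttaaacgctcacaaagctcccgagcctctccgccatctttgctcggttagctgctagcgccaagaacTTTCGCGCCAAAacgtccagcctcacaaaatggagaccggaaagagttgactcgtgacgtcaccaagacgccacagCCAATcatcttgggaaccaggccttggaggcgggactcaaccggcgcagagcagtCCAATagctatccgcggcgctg
Mcm6, chr1:128359706-128359955, minus strand: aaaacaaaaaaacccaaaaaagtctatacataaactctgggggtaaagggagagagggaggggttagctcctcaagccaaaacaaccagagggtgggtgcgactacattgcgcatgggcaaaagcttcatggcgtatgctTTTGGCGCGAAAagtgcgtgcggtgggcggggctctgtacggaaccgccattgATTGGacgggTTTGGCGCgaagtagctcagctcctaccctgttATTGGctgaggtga
Rrm2, chr12:24708004-24708253, plus strand: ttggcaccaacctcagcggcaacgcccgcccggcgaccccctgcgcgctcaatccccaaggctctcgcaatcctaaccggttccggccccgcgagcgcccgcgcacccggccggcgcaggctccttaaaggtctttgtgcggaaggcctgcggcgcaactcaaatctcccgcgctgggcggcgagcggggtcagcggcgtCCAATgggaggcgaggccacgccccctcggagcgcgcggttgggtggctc
Pola2, chr19:5964207-5964456, minus strand: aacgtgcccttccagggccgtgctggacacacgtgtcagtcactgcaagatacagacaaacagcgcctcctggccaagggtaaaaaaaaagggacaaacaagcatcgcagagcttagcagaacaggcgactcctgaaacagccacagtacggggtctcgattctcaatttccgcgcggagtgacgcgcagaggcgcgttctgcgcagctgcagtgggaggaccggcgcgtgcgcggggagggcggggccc

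With overlapping words counted separately, the Mcm5 window held 2 E2F words, which overlap, and 2 NF-Y words, the Mcm6 window held 3 E2F words, 2 of which overlap, and 2 NF-Y words, the Rrm2 window held 1 NF-Y word only, and the Pola2 window held neither. In the 300-base window that RefSeq promoters cover here, 250 bases before the start and 50 after it, 35 of the 44 members had an entry. An E2F word was found in 13 of these 35 members (37.1%) against 2.61% of the promoters of all 27025 genes with an entry. By role, the E2F word was found in 6 of 8 origin licensing genes (Cdc6, Cdt1, Mcm3, Mcm5, Mcm6 and Mcm7) and in 3 of 4 genes of polymerases delta and epsilon (Pold1, Pold3 and Pole2). It was found in 1 of 3 genes of polymerase alpha and primase (Pola1), in 1 of 5 each of the clamp and its loaders (Rfc3) and of single-strand binding and fragment joining (Lig1), in 1 of 2 of fork protection and repair (Clspn), in 0 of 4 of deoxynucleotide supply, in 0 of 2 of helicase activation and in 0 of 2 of histone supply and chromatin assembly. The NF-Y word was found in 22 of 35 members, or 62.9%, against 41.1% of all genes. The word TTTGAA of the CHR element, on either strand, was found in 4 of 35 members, or 11.4%, against 20.2% of all genes. The 33 mitosis and G2/M genes listed for comparison had another make-up, with TTTGAA in 22 of the 28 that had an entry and an E2F word in 1 of 28. A word match describes these letters only.

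One E2F word each of 7 other members is shown within 30 bases, with the word in capitals. Words of Clspn, Lig1, Pold3 and Rfc3 and a second word each of Mcm3 and Mcm7 are not shown. The position is that of the word's first base relative to the gene's start, whose own base is 1.
Cdc6, at -138: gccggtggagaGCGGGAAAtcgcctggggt
Cdt1, at 33: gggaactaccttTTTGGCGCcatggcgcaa
Mcm3, at 39: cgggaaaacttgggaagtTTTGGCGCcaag
Mcm7, at 17: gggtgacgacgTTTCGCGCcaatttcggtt
Pola1, at -138: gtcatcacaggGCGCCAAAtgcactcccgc
Pole2, at 11: cgtcggcggtgGCGCCAAAtcgcgaacatg
Pold1, at 40: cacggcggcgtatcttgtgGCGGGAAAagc

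Across nearly every role, mean levels of replication genes were lower in the knockout than in control B1a cells, by small amounts. Of the 43 members tested, 41 had a lower mean in the knockout (95.3%), whereas 60.2% of the 18236 genes tested did. The median difference of the members was -0.45 (log2, knockout minus control), which is 1.36-fold lower, and that of all genes tested was -0.12. For the 39 members above background on all 6 arrays it was -0.42 (-0.12 for all such genes). With undetected arrays held at the dimmest detected signal it was -0.40 (-0.08 for all genes). Relative to the control mean, the 39 members above background on all 6 arrays had a median of 0.11, -0.12 and 0.01 in the controls and of -0.45, -0.48 and -0.39 in the knockouts. The 15681 genes above background on all 6 arrays had medians of 0.01, -0.03 and 0.03 in the controls and of -0.09, -0.18 and -0.06 in the knockouts. The knockout medians lay below the control medians in both, by more in the members.

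The individual differences were mostly too small to pass a threshold. A gene was called where it differed at least 2-fold with an unadjusted P of at most 0.05, the thresholds of the study. By this rule Cdc6, Rrm2 and Dscc1 were called lower, 3 of 43 members, with 1.27% of all genes tested called lower. No member was called higher, with 2.25% of all genes called higher. Of all the genes called, 64.0% were called higher, and this share lay between 44.8% and 80.9% under the 5 other scalings of the arrays. No member had an adjusted P under 0.05 by limma with Benjamini-Hochberg adjustment over all genes (0.0384% of all genes had), and the smallest was 0.105. At an unadjusted P of at most 0.05, 22 members were lower and 0 were higher, against 13.6% of all genes lower and 11.6% higher. The methods' t-test also gave 0 members with an adjusted P under 0.05, and at 2-fold and an unadjusted P of at most 0.05 it called Dscc1 only, so the calls of Cdc6 and Rrm2 were lost. Without control replicate 1 only Cdc6 was called lower.

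In 26 of 43 members every knockout array lay below every control array (60.5%), which 21.6% of all genes tested did, and in 0 of 43 did every knockout array lie above every control array, which 14.7% of all genes did. Such a separation is the most extreme order that 3 against 3 arrays allow, and its two-sided exact permutation P is 0.1. The count of separated members was 18 with quantile normalization, 19 with the median of detected probes, 26 with normexp and the 75th percentile, 19 with normexp and quantile normalization and 20 with the deposited values, when 16.8%, 15.1%, 29.8%, 16.9% and 17.7% of all genes were separated. Of the 43 members, 39 were above background on all 6 arrays, and among these 23 were separated and 37 had a lower mean. Cdc6, Tyms, Cdc45 and Dscc1 passed the filter on dim probes only through the control arrays, so their difference was in part set by that filter. Clspn, the adaptor through which ATR activates Chk1, was above background on no array and was not tested.

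**Figure D1:**
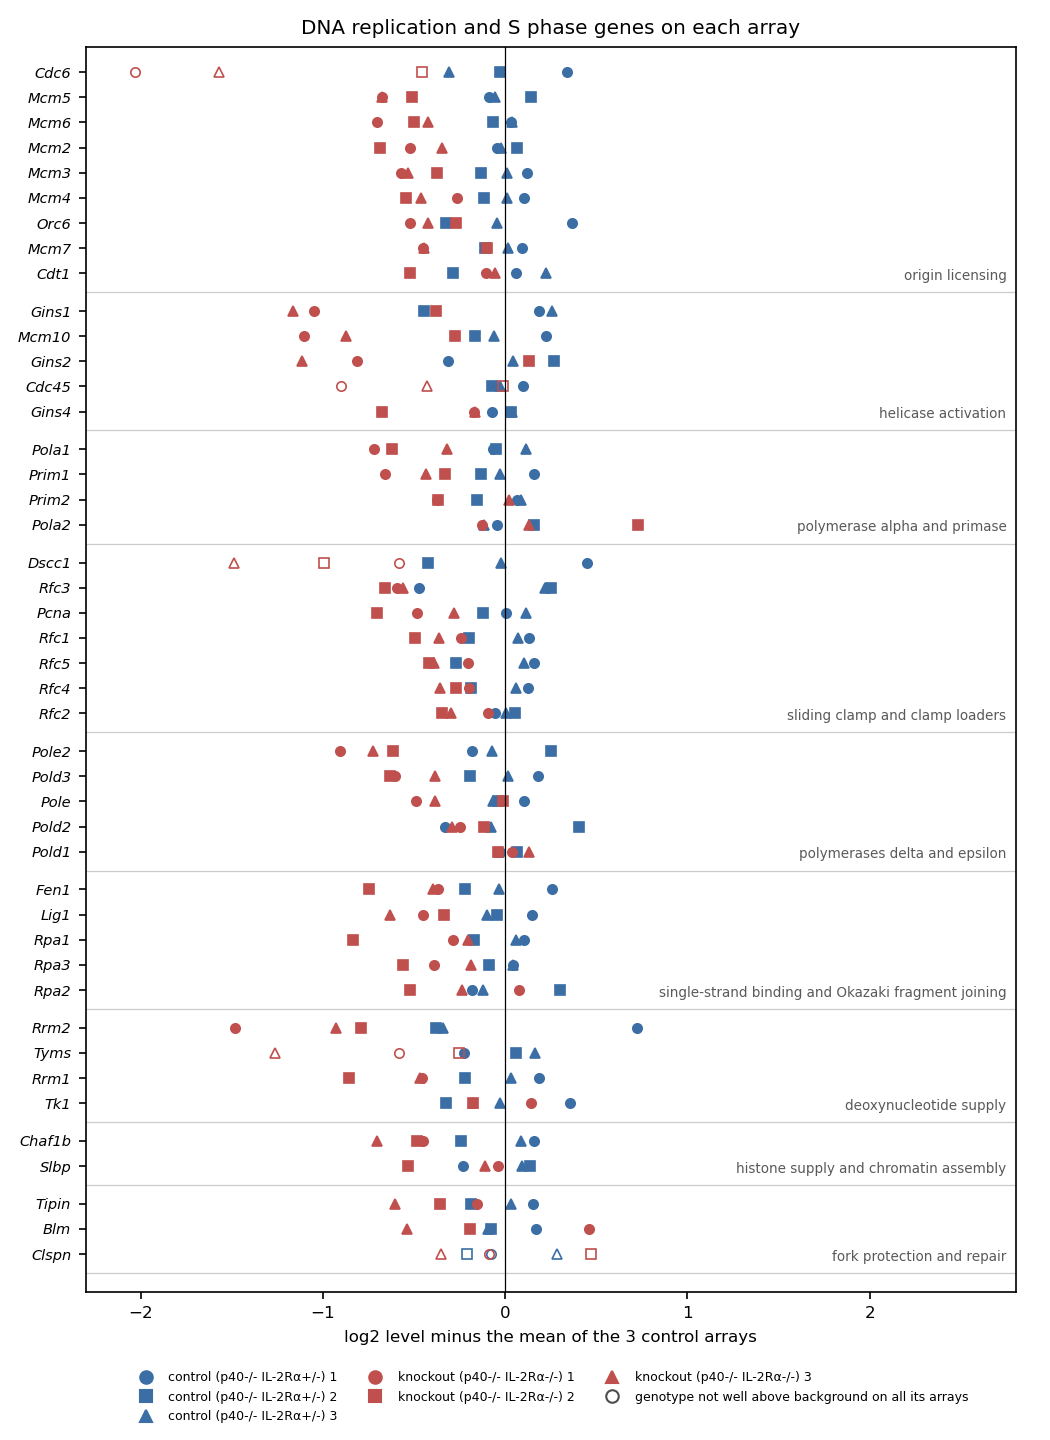
Each row is a member, grouped by role, and each point is 1 array, as its log2 level minus the mean of the 3 control arrays. Most knockout points lie left of the control points, and the knockout means of Pola2 and Pold1 lie to the right of 0, though other scalings turn the sign of both; open symbols mark a genotype that was not well above background on all of its arrays.

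All 9 origin licensing genes had a lower mean in the knockout, with a median of -0.49. The median was -0.46 for those above background on all 6 arrays and -0.42 with undetected arrays held at the dimmest detected signal. Mcm2, Mcm3, Mcm4, Mcm5, Mcm6 and Mcm7 encode the ring of the replicative helicase. Mcm5 read 2.76, 2.99 and 2.79 in controls and 2.17, 2.34 and 2.17 in knockouts. The genotypes were separated for Mcm5, with a difference of -0.62 ± 0.14 (SE, adjusted P of 0.105 by limma). Mcm6 read 5.87, 5.76 and 5.87 in controls and 5.13, 5.33 and 5.41 in knockouts. Its difference was -0.54 ± 0.14 (adjusted P of 0.119 by limma), again with no overlap.

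The other helicase subunits gave similar values. Mcm2 differed by -0.52, Mcm3 by -0.49 and Mcm4 by -0.42, each without overlap, and Mcm7 by -0.33 with overlap, since knockout array 2 read 3.70 for Mcm7 and the lowest control 3.69. Thus 5 of the 6 subunits were separated and their differences lay between -0.62 and -0.33. A further Mcm3 probe, dimmer than the one used, differed by -0.52.

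Cdc6 and Cdt1 act with the origin recognition complex, to which Orc6 belongs, to load this helicase onto replication origins. Cdc6 read -2.59, -2.96 and -3.23 in controls, all well above background, and -4.95, -3.38 and -4.49 in knockouts, none of them well above background. Its measured means were -2.93 and -4.28 and its fitted difference was -1.35 ± 0.39 (adjusted P of 0.129 by limma). With each knockout array held at no less than its dimmest detected signal, Cdc6 was 1.22-fold lower. On knockout array 2 that signal (-2.47) lay above every Cdc6 control, so this array could not show a lower level. With background corrected by normexp in place of the scanner software's correction, Cdc6 turned to 0.35 when scaled by the 75th percentile and was -0.29 with quantile normalization. The second Cdc6 probe, also dim, differed by -1.32 in the array means. Cdt1, a bright probe, overlapped between genotypes at -0.23 and Orc6 overlapped at -0.40.

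All 5 genes of helicase activation had a lower mean, with a median of -0.60, but only Mcm10 and Gins4 were separated. Mcm10, needed for the loaded helicase to begin unwinding, read -0.10, -0.49 and -0.38 in controls and -1.43, -0.60 and -1.20 in knockouts. Its difference was -0.75 ± 0.24 (adjusted P of 0.139 by limma). Gins1, a subunit of the GINS complex that joins Cdc45 and the MCM ring in the active helicase, read 0.39, -0.24 and 0.46 in controls and -0.84, -0.18 and -0.96 in knockouts. Gins1 had the largest difference of this role at -0.86 ± 0.28 (adjusted P of 0.139 by limma), and its knockout array 2 lay above its lowest control array.

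Without control replicate 2 or without knockout replicate 2, Gins1 was called lower, at -1.09 and -1.11, and so it was with array weights, at -1.09. Gins2 differed by -0.60 with overlap, and its sign turned to 0.04 with normexp and the 75th percentile. Gins4 differed by -0.34. Cdc45 was well above background on 1 of 3 knockout arrays and differed by -0.45 with overlap, which is -0.14 with the undetected arrays held at the dimmest detected signal, and turned to 0.46 with normexp and the 75th percentile.

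Polymerase alpha and primase start each DNA strand by laying down an RNA-DNA primer, and this role held the member with the highest difference. Pola1, the catalytic subunit, read 0.04, 0.06 and 0.22 in controls and -0.61, -0.51 and -0.21 in knockouts. It was separated, with a difference of -0.55 ± 0.16 (adjusted P of 0.128 by limma). Prim1, the catalytic subunit of primase, read 2.71, 2.42 and 2.53 in controls and 1.89, 2.22 and 2.12 in knockouts. It was separated as well, at -0.47 ± 0.16 (adjusted P of 0.146 by limma). Prim2, the larger primase subunit, overlapped at -0.24.

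Pola2, the accessory subunit of polymerase alpha, read -2.93, -2.72 and -3.00 in controls and -3.01, -2.15 and -2.75 in knockouts. Its mean was higher in the knockout by 0.25 ± 0.23, the genotypes overlapped, and its sign turned to -0.01 with the deposited values and to -0.01 with normexp and quantile normalization. With normexp and the 75th percentile it was 0.56, with an adjusted P of 0.0358 by limma. It was not called.

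All 7 genes of the sliding clamp and its loaders had a lower mean, with a median of -0.36, and 6 were separated. Pcna encodes the clamp itself and read 5.09, 4.97 and 5.20 in controls and 4.61, 4.39 and 4.81 in knockouts. The genotypes did not overlap and differed by -0.49 ± 0.16 (adjusted P of 0.145 by limma). The clamp is opened and placed on DNA by replication factor C, encoded by Rfc1, Rfc2, Rfc3, Rfc4 and Rfc5. Rfc3 read -1.62, -0.90 and -0.93 in controls and -1.74, -1.81 and -1.71 in knockouts, a difference of -0.60 ± 0.22 (adjusted P of 0.159 by limma).

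The other 4 subunits of replication factor C lay close together. Rfc1 differed by -0.36, Rfc2 by -0.24, Rfc4 by -0.27 and Rfc5 by -0.34, with overlap in Rfc5 only. The dimmer Rfc4 probe differed by -0.23 with overlap.

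Dscc1, part of an alternative clamp loader that acts in sister chromatid cohesion, was called lower. It read -1.55, -2.43 and -2.03 in controls and -2.58, -2.99 and -3.49 in knockouts, with 2 of 3 knockout arrays well above background. Its difference was -1.02 ± 0.30 (adjusted P of 0.129 by limma), just past the 2-fold threshold, but with the undetected array held at the dimmest detected signal it was at least 1.80-fold lower, which is under that threshold. The call was lost without control replicate 1, at -0.79, and without knockout replicate 3, at -0.79. It was also lost with the median of detected probes, at -0.93, and with array weights, at -0.86. The sign of Dscc1 turned to 0.13 with normexp and the 75th percentile, while with normexp and quantile normalization its difference was -0.39.

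In polymerases delta and epsilon, which copy the lagging and the leading strand, 4 of 5 members had a lower mean and the median was -0.30. Pole2, the second subunit of polymerase epsilon, read -1.25, -0.81 and -1.13 in controls and -1.97, -1.68 and -1.79 in knockouts. Its difference of -0.75 ± 0.17 had the smallest adjusted P of any member, 0.105 by limma. Pold3, an accessory subunit of polymerase delta, read 3.29, 2.92 and 3.13 in controls and 2.51, 2.48 and 2.73 in knockouts, a difference of -0.54 ± 0.16 (adjusted P of 0.130 by limma). Both genes were separated.

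The catalytic subunits of these polymerases showed smaller differences. Pold1, of polymerase delta, read 4.15, 4.24 and 4.14 in controls and 4.21, 4.13 and 4.31 in knockouts. Its mean was higher by 0.04 ± 0.13, its arrays were interleaved, and its sign turned to -0.26 with normexp and the 75th percentile. Pole, of polymerase epsilon, read 1.29, 1.14 and 1.11 in controls and 0.69, 1.17 and 0.80 in knockouts, with overlap at -0.30 ± 0.17 (adjusted P of 0.289 by limma). Its other probes went the other way, by 0.44 and 0.14 in the array means, but were well above background on 3 and on 0 of the 6 arrays. Pold2, a further subunit of polymerase delta, overlapped at -0.22.

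**Figure D2:**
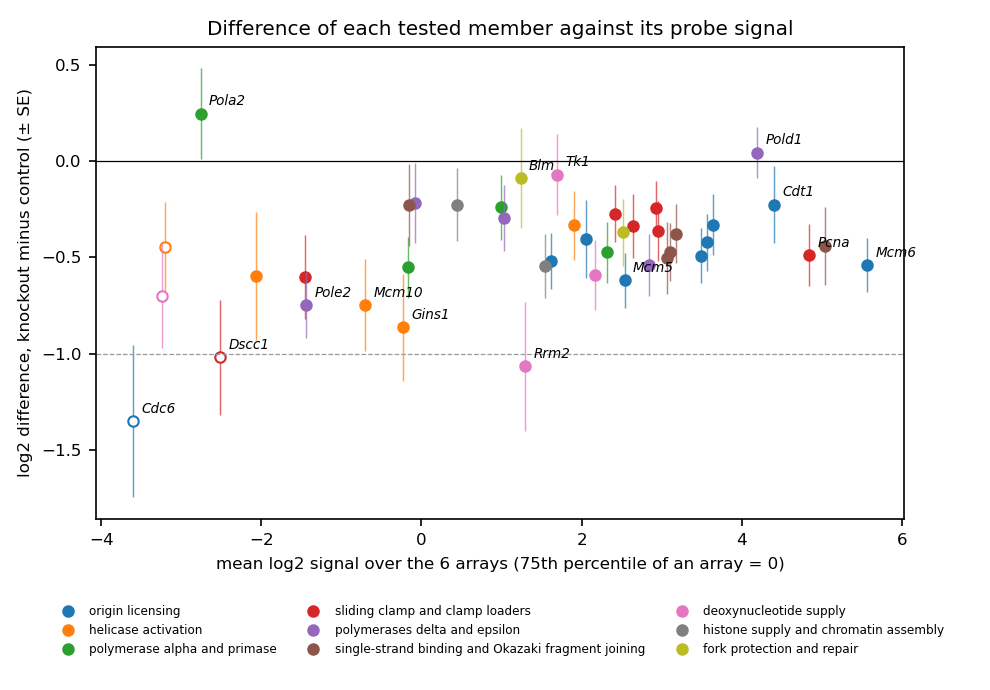
The log2 difference of each tested member, knockout minus control, with its SE, is plotted against the mean log2 signal of its probe over the 6 arrays, and open circles mark members not above background on all 6. The members called lower, Rrm2, Dscc1 and Cdc6, lie below the dashed line at -1, and Dscc1 and Cdc6 are dim probes whose sign turned with normexp and the 75th percentile, to 0.13 and 0.35, but not with normexp and quantile normalization, at -0.39 and -0.29.

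All 5 genes of single-strand DNA binding and Okazaki fragment joining had a lower mean, with a median of -0.44, and 4 were separated. Fen1, the nuclease that trims the flap between fragments, read 3.57, 3.10 and 3.28 in controls and 2.95, 2.57 and 2.92 in knockouts, a difference of -0.50 ± 0.19 (adjusted P of 0.165 by limma). Lig1, the ligase that seals them, read 3.49, 3.30 and 3.24 in controls and 2.89, 3.00 and 2.71 in knockouts, a difference of -0.47 ± 0.15 (adjusted P of 0.139 by limma). Both genes were lower on every knockout array than on any control array. Rpa1, Rpa2 and Rpa3 encode the heterotrimer that coats single-stranded DNA. Rpa1 differed by -0.44 and Rpa3 by -0.38 without overlap, and Rpa2 by -0.23 with overlap. The dimmer Rpa1 probe gave -0.43.

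All 4 genes of deoxynucleotide supply had a lower mean, with a median of -0.65, and Rrm2 was the only called member that was above background on all 6 arrays. The median was -0.59 for the 3 genes above background on all 6 arrays and -0.45 with undetected arrays held at the dimmest detected signal. Rrm2, the regulated small subunit of ribonucleotide reductase, read 2.55, 1.44 and 1.48 in controls and 0.34, 1.03 and 0.90 in knockouts. It differed by -1.07 ± 0.34 (adjusted P of 0.138 by limma) without overlap, and control array 1 stood far above the other two. Without control replicate 1 the difference was -0.71 and without knockout replicate 1 it was -0.86, and in both cases Rrm2 was not called. It was also under 2-fold with quantile normalization, at -0.96, with the median of detected probes, at -0.98, with normexp and quantile normalization, at -0.84, and with the deposited values, at -0.97, and by the methods' t-test its P missed the threshold.

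Rrm1, the large subunit of the same enzyme, read 2.65, 2.24 and 2.49 in controls and 2.00, 1.60 and 1.99 in knockouts. It was separated, with a difference of -0.59 ± 0.18 (adjusted P of 0.132 by limma). Tyms, thymidylate synthase, was well above background on no knockout array, with means of -2.89 in controls and -3.59 in knockouts and an adjusted P of 0.175 by limma. With each knockout array held at no less than its dimmest detected signal, Tyms was 1.24-fold lower. On knockout array 2 that signal (-2.47) lay above every Tyms control. Its difference turned to 0.45 with normexp and the 75th percentile, while with the deposited values it was -1.01 and was called lower. Tk1, the thymidine kinase of the salvage route, overlapped at -0.07, and under 4 of the 5 other scalings its sign turned, to between 0.02 and 0.06.

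Of the genes of histone supply and chromatin assembly, Chaf1b was separated and Slbp was not. Chaf1b, a subunit of the factor that places histones on new DNA, read 1.97, 1.57 and 1.90 in controls and 1.36, 1.33 and 1.11 in knockouts, a difference of -0.55 ± 0.17 (adjusted P of 0.131 by limma). Its second probe gave -0.64. Slbp, which binds and protects replication-dependent histone mRNAs, read 0.32, 0.69 and 0.65 in controls and 0.51, 0.02 and 0.44 in knockouts. It overlapped, at -0.23 ± 0.19 (adjusted P of 0.441 by limma), and its second probe gave -0.43 with overlap.

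The tested genes of fork protection and repair overlapped between genotypes. Tipin, which with Timeless stabilises paused forks, read 2.86, 2.52 and 2.74 in controls and 2.55, 2.35 and 2.11 in knockouts, a difference of -0.37 ± 0.17 (adjusted P of 0.225 by limma). Blm, the Bloom syndrome helicase, read 1.45, 1.20 and 1.19 in controls and 1.75, 1.09 and 0.75 in knockouts. Its knockout arrays spanned the controls on both sides, and its difference of -0.09 ± 0.26 turned to between 0.00 and 0.03 under 4 of the 5 other scalings.

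**Figure D3:**
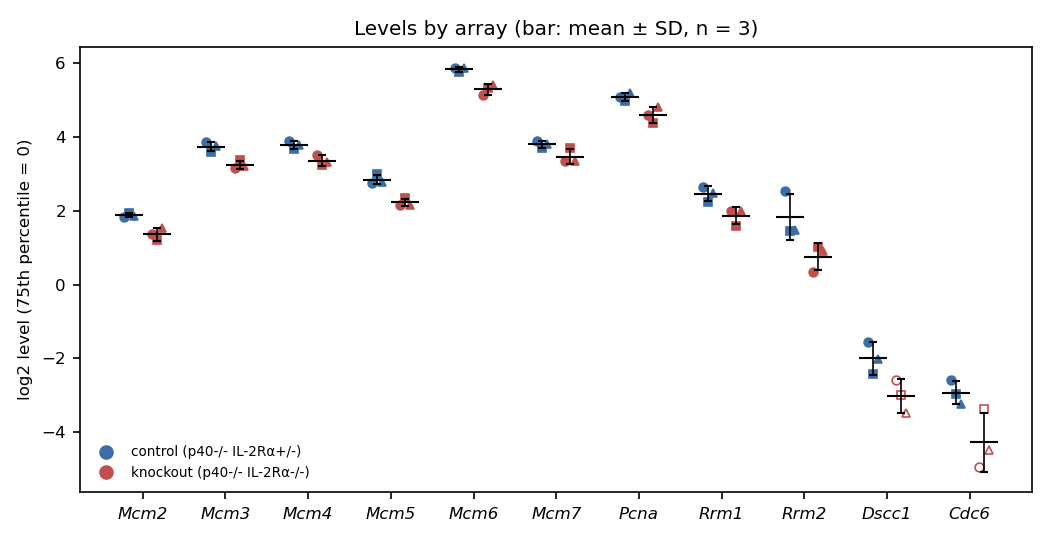
Log2 levels on each array, with the mean and SD of 3 arrays per genotype, for the Mcm2 to Mcm7 subunits, Pcna, both ribonucleotide reductase subunits, Dscc1 and Cdc6, with the 75th percentile of an array at 0. The arrays of the 2 genotypes interleave for Mcm7 and are apart for the other genes with filled symbols in both, while Cdc6 and Dscc1 (open symbols) were not well above background on every knockout array, and heights are not compared between genes because probes differ in brightness.

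Members with and without an E2F word in their promoter window were set side by side. The 12 tested members with the word had a median of -0.54 and 9 of them were separated, and the 22 with an entry but no word had a median of -0.42 and 13 of them were separated. The 9 with no entry had a median of -0.37 and 4 of them were separated. Of all genes tested, 21.6% were separated downwards. Those with the word include Cdc6, those with an entry but no word Cdc45 and Tyms, and those with no entry Dscc1. All of these passed the filter only through the controls. Pold1 has the word and lay at 0.04, while Rrm2 has none and was called lower. This comparison is a description of the members and was not tested.

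Brightness was set against the differences among the members above background on all 6 arrays. The 9 members whose mean signal lay below the 75th percentile had a median difference of -0.60, whereas the 4848 genes of that brightness had a median of 0.18. For the 21 members with a mean log2 signal above 2 the median was -0.42, against -0.20 in 6737 genes, and 15 of these members were separated (32.8% of genes of that brightness were). The 9 members in between had a median of -0.30, against -0.16 in 4096 genes. The members lay below the genes of like brightness in each range.

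Genes near the members in function were read from lists of their own. Of 47 other replication genes tested, 39 had a lower mean and the median was -0.38. In this list every knockout array lay below every control array in 22 genes and above in 3, namely Pold4, Atad2 and Wdhd1. Of all genes tested, 21.6% lay below and 14.7% above in this way. Cdc7, the kinase that activates the loaded helicase, had the highest difference, at 0.89 with overlap.

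Of 16 E2F and pocket protein genes tested, 14 had a lower mean, the median was -0.31 and none was called. In 8 of the 16 every knockout array lay below every control array, which 21.6% of all genes did. The 2 largest differences were those of E2f8, a repressor of the family, at -0.98 with 2 of 3 knockout arrays above background, and E2f4 at -0.70. E2f7 was the 1 gene of this list with every knockout array above every control array, at 0.48 (14.7% of all genes tested did so).

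The mitosis and G2/M list went further from 0. Of 29 genes tested, 27 had a lower mean and the median was -0.78, or -0.72 for the 22 above background on all 6 arrays. Called lower were 9 (1.27% of all genes tested were), namely Cdk1, Birc5, Kif11, Cdca3, Anln, Cenpe, Ccna2, Top2a and Bub1b. Of the 29, 7 passed the filter only through the control arrays, among them Cdk1, Kif11 and Anln, so 6 of the 9 calls were of genes above background on all 6 arrays. Hmmr went the other way, at 0.76 ± 0.16 (adjusted P of 0.104 by limma), with every knockout array above every control array. Mki67, which encodes Ki67, read 2.72, 2.12 and 2.02 in controls and 1.16, 1.55 and 1.58 in knockouts. It was separated at -0.85 ± 0.23 (adjusted P of 0.121 by limma) and fell short of the 2-fold threshold. Top2a, the topoisomerase that untangles replicated chromosomes, differed by -1.06 ± 0.17 (adjusted P of 0.0767 by limma). Every knockout array lay below every control array in 37.9% of this list, in 60.5% of the replication members and in 21.6% of all genes tested. The share was thus smaller in this list than in the members, though its median difference was larger, and neither contrast between the lists was tested.

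**Figure D4:**
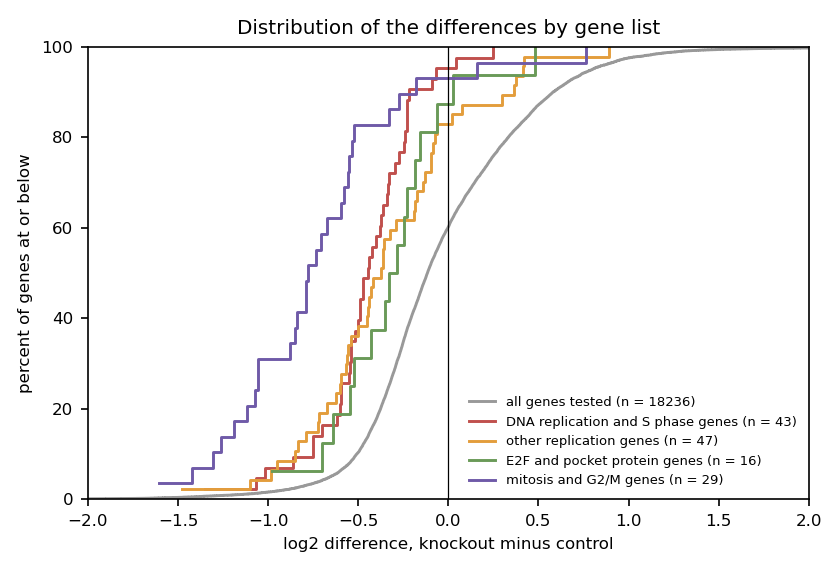
Cumulative percent of genes at or below each log2 difference, knockout minus control, for all 18236 genes tested and for the 4 gene lists. The curve of the 43 members lies left of that of all genes, with medians of -0.45 and -0.12, and the curve of the 29 mitosis and G2/M genes lies further left, with a median of -0.78.

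Markers of B cells, B1a cells and other cells were read beside these results as summed linear levels, relative to the 75th percentile of each array. The 5 plasma cell markers summed to between 68.6 and 75.6 on control arrays and between 46.6 and 59.5 on knockout arrays, without overlap. Xbp1 and Irf4, the brightest of them (mean log2 signal of 5.08 and 4.46), weighed most in this sum, and Sdc1 was above background on no knockout array. Of the 5, Igj and Xbp1 were separated downwards (21.6% of all genes tested were). The 9 T cell markers summed to between 4.94 and 5.68 in controls and between 5.84 and 7.76 in knockouts, also without overlap, with Trat1 at background on every array. The 8 macrophage markers summed to between 14.7 and 26.9 in controls and between 11.9 and 23.2 in knockouts. Of the 5 NK cell markers, Klrb1c, Klrk1 and Ncr1 were at background on every array, and the sum was at most 0.49. The 7 granulocyte and mast cell markers summed to between 0.93 and 4.17 in controls and between 0.95 and 1.92 in knockouts, and the 7 B cell markers to between 1162 and 1204 in controls and between 1200 and 1421 in knockouts. The 5 B1a markers summed to between 195 and 230 in controls and between 191 and 227 in knockouts. Separated upwards were Cd79b, Pax5, Itgam, Bhlhe41 and Cd3e (14.7% of all genes tested were). Among all these markers Igj, at -1.92 without overlap, and Lyz2, at -1.08 with overlap, were called lower, and Cd3d, at 1.41 with overlap, was called higher. Cd3g, also a T cell marker, lay at -0.28 with overlap. The part of these cells in the differences of the members was not tested.

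The lower median of the members held under each scaling of the arrays, with a smaller size under most. It was -0.27 with quantile normalization, -0.35 with the median of detected probes, -0.53 with normexp correction and the 75th percentile, -0.22 with normexp and quantile normalization and -0.27 with the deposited values. Relative to the median of all genes under the same scaling, the members lay between -0.44 and -0.17. Of the 43 members tested, 34 kept their sign under all 5 scalings, and the 9 that did not were Cdc6, Cdc45, Gins2, Dscc1, Tyms, Pola2, Pold1, Tk1 and Blm.

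**Figure D5:**
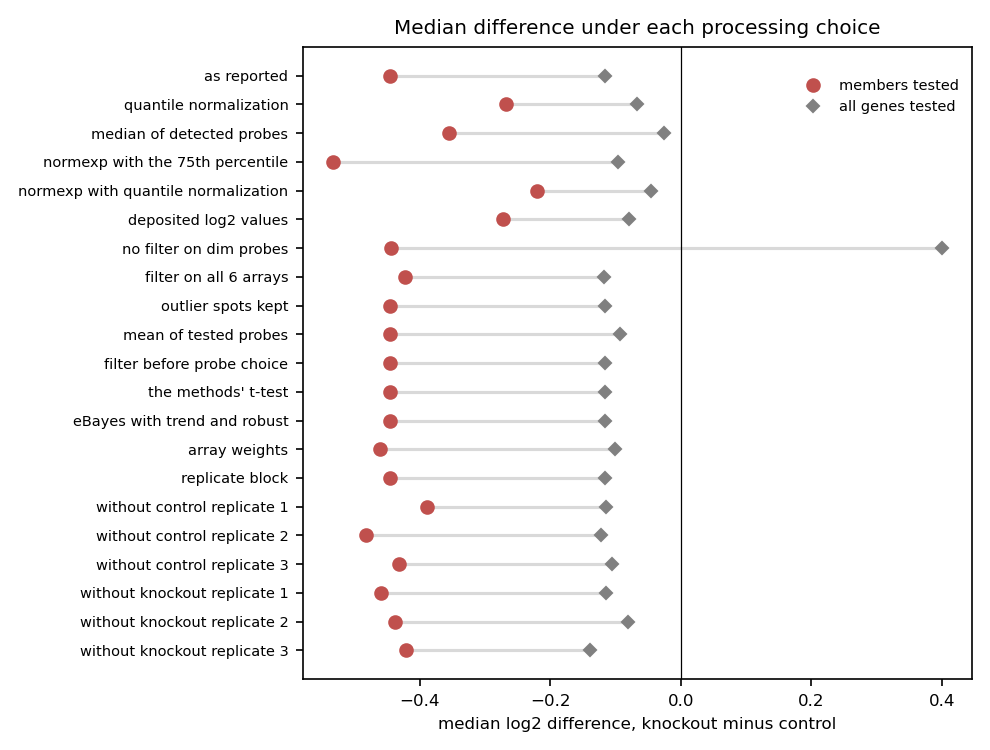
Median log2 difference, knockout minus control, of the members tested (circles) and of all genes tested (diamonds) under each processing choice. The members' median stays below 0 and below that of all genes in each case, between -0.53 and -0.22, while the median of all genes turns to 0.40 where no filter on dim probes was used.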

How the data were processed

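Processed intensity per spot (gProcessedSignal) was read from 6 single-colour Agilent arrays, made per the labels by the authors with Agilent Feature Extraction 10.7.1.1. The table of deposited log2 values held the same probes, quantile normalised (each array with the same sorted values, median 3.16, by a centring that is not stated), and each of its columns matched its own array best. It served as an alternative. Outlier and control spots were left out, spots of a probe averaged, and log2 intensity scaled by the array's 75th percentile. One probe per gene name was kept, the one with the highest mean signal. A gene was tested if either genotype had this probe well above background on all of its 3 arrays, with limma 3.58.1 in R 4.3.3 (lmFit, eBayes) and Benjamini-Hochberg adjustment over 18236 genes, and the fit was checked on simulated data. A call required at least 2-fold and an unadjusted P of at most 0.05. Where a genotype was not above background on all of its arrays, a lower bound of the fold was computed with each of that genotype's arrays at no less than its dimmest detected signal. The number of arrays limits the precision. Genes were named as in the array files, with positions in mm9, and promoters came from RefSeq tables on GRCm38.p6. Every member was named at least once; per-array values were given for the 2 largest differences of each role among members above background on all 6 arrays, for called members, for members higher in the knockout and for members whose probes disagreed in sign. The members and all gene lists were chosen with earlier results of these data known. Alternatives changed background correction, scaling, filter, probe choice, test, array weights, replicate block and the arrays included. Some items are not reported here.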

Additional observations from a re-analysis of the deposited data

How the results depend on the processing

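Of the 43 members tested, 34 kept their sign under every alternative. The median over members (-0.45) was -0.27 with quantile normalization, -0.35 with the median of detected probes, -0.53 with normexp and the 75th percentile, -0.22 with normexp and quantile normalization and -0.27 with the deposited values, and the median of all genes (-0.12) was -0.0673, -0.0249, -0.0966, -0.0459 and -0.0787, and 0.40 with no filter on dim probes. The 3 members called lower became 1 with the median of detected probes, with normexp and the 75th percentile, with the filter on all 6 arrays and with the methods' t-test, and 0 with normexp and quantile normalization. The members with an adjusted P under 0.05, 0 by limma, were 23 with normexp and the 75th percentile (22 lower, and Pola2 higher), 2 with trend and robust fitting and 8 with array weights. Of all genes, 231 were called lower and 411 higher and 7 passed the adjusted threshold. Those called lower were 394 with quantile normalization, 89 with normexp and the 75th percentile, 31 with normexp and quantile normalization, 402 with the deposited values, 77 with the filter on all 6 arrays, 147 with the methods' t-test and 364 with array weights. Those called higher were 103 and 131 with normexp under the 75th percentile and quantile normalization, and 10386 with no filter, where probes at background entered. Those past the adjusted threshold were 23 with quantile normalization, 6467 and 13 with normexp, 22 with the deposited values, 2 with no filter, 27 with the filter on all 6 arrays, 11 with the mean of tested probes, 2 with the methods' t-test, 755 with trend and robust fitting, 1300 with array weights and 4 with the replicate block. The cause of these shifts was not tested. Leaving out each array in turn gave 1 to 4 members called lower, a median over members of -0.48 to -0.39, 2 to 111 genes past the adjusted threshold (111 without knockout replicate 3) and 316 to 798 genes called higher (798 without knockout replicate 3).

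Sign changes of single members were as follows. With normexp and the 75th percentile, Cdc6 was 0.35, Cdc45 0.46, Gins2 0.04, Dscc1 0.13, Tyms 0.45 and Pold1 -0.26. Pola2 was -0.01 with normexp and quantile normalization and with the deposited values. Tk1 was 0.06 with quantile normalization, 0.02 with the median of detected probes, 0.06 with normexp and quantile normalization, 0.05 with the deposited values and 0.03 with array weights, and Blm was 0.01, 0.00, 0.03, 0.00 and 0.15 in the same order. Leaving out each array in turn gave -0.23 to 0.11 for Tk1 (highest without control replicate 1), -0.36 to 0.13 for Blm and -0.00 to 0.08 for Pold1 (each turned without knockout replicate 3). The labels number the replicates 1 to 3 in both genotypes, but same-numbered arrays correlated in their deviations by 0.19, 0.06 and 0.09 only, so the numbers were not taken to pair samples; with the replicate block 3 members were called lower, as without it. Dim signal limits Cdc6, Tyms, Cdc45, Dscc1, Gins2 and Pola2.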
